A study of Mus musculus with 11 samples.

Results

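The 4 mouse genes Atf4, Otx1, Tob2 and Ubqln2 were examined for 5-hydroxymethylcytosine (5hmC) in and around their gene spans. They were chosen from these same data, for a higher 5hmC signal in the wild-type line DNMT_WT than in the wild-type line TET_WT at day 2 of differentiation. The line difference at day 2 is therefore given as a description, with no test. The genes are 4 of 20713 protein-coding genes with a value, and their windows, each gene span with 20 kb on either side, hold 94 of the 1362779 deposited tiles of 2 kb. Of these 94 tiles, 93 passed the filter on low and high signal.

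The 11 libraries came from DNMT_WT epiblast-like cells (EpiLC) at day 2 (n = 3) and from TET_WT cells as embryonic stem cells at day 0 (n = 3) and as EpiLC at day 1 (n = 2, replicates 2 and 3) and day 2 (n = 3). DNMT_WT is the parent of a line lacking Dnmt1, Dnmt3a and Dnmt3b, and TET_WT the parent of a line lacking Tet1, Tet2 and Tet3. The parental lines carry none of these deletions, the day 0 cells grew in 2i/Lif, and the knockout lines and embryoid bodies named in the design were not analysed here. Each wild type is a single line, so a property of DNMT_WT cells and a property of this one culture history cannot be told apart. The labels do not say that replicates were separate cultures, so p-values measure the spread between libraries, which may be technical.

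Libraries held 16468363 to 41395789 reads in DNMT_WT and 7342015 to 51604034 in TET_WT. Tiles without reads made up 21.4% to 29.0% of a DNMT_WT library and 13.1% to 34.0% of a TET_WT library. Day 0 replicate 2 stood apart from its group, with 30.2% of tiles without reads against 15.6% and 13.1% in replicates 1 and 3.

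5hmC is made by the TET enzymes, which oxidise methylated cytosine, mostly at CpG dinucleotides. It is usual in gene bodies and at enhancers, whereas CpG-rich starts of genes are commonly free of methylation and hold little of it. The 4 genes work in separate pathways. Atf4 encodes the transcription factor through which the integrated stress response acts on its target genes. Otx1 encodes a homeodomain factor of the developing forebrain, related to Otx2. Tob2 belongs to the TOB/BTG proteins, which slow proliferation and recruit the CCR4-NOT deadenylase to mRNA. Ubqln2, an X-linked gene, encodes a ubiquilin that carries ubiquitinated proteins to the proteasome.

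The sharpest line differences lay at the starts of Atf4 and Tob2, so both start regions are shown. RefSeq promoters of GRCm38.p6, running from 250 bases before to 50 bases after the gene start, matched these 2 of the 4 genes. The Atf4 sequence is chr15:80254934-80255233 on the plus strand and the Tob2 sequence is chr15:81858277-81858576 on the minus strand. Both are written 5′ to 3′ with each CpG, the dinucleotide CG, in capitals.
Atf4: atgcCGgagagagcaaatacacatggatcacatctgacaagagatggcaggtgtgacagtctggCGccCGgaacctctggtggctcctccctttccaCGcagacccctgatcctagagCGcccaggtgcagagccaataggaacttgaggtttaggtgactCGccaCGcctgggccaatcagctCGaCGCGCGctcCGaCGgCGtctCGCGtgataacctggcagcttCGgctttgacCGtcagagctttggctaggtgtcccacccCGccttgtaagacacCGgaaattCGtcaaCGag
Tob2: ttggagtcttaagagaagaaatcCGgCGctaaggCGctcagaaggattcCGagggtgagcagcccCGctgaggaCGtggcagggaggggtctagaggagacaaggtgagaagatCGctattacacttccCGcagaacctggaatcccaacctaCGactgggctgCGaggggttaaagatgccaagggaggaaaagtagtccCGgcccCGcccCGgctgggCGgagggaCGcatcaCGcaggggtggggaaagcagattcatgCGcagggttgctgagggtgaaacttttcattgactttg
The Atf4 promoter holds 22 CpG and the Tob2 promoter 17. The median of 26794 promoters of this length was 7 CpG, and 94.4% of them held at least 1 (CG reads the same on both strands). Promoters with at least 22 CpG made up 23.5% of the table and those with at least 17 made up 32.2%, so CpG counts of this size are common.

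The tile with the start of Tob2 (chromosome 15, 81858001 to 81860000) was nearly empty in TET_WT and full in DNMT_WT. It held 676, 214 and 399 reads in DNMT_WT replicates 1, 2 and 3, against 0, 3 and 4 reads in TET_WT day 2 replicates 1, 2 and 3. On the deposited scale, log2 of reads per kilobase scaled to the library total (log2 RPKM), this was 4.25, 3.92 and 3.97 in DNMT_WT and -4.75, -2.54 and -2.56 in TET_WT at day 2. The groups do not overlap. TET_WT libraries of the earlier days were below DNMT_WT too, with 13, 3 and 11 reads at day 0 and 0 and 2 reads at day 1. The difference of 7.32 was the second largest among 1183891 tiles kept. Its size depends on the value that the deposited table gives to tiles without reads, which equals 0.9 reads.

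The tile with the start of Atf4 (chromosome 15, 80254001 to 80256000) had the same shape. It held 259, 100 and 162 reads in DNMT_WT, against 6, 3 and 0 in TET_WT at day 2. At day 0 it held 16, 3 and 8 reads and at day 1 it held 2 and 2. The difference between DNMT_WT and TET_WT at day 2 was 5.87 on the log2 scale, 26th among the tiles kept. The next tile, which covers the rest of the short Atf4 gene, had 102, 31 and 42 reads in DNMT_WT and 2, 1 and 6 in TET_WT at day 2, a difference of 4.35.

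Higher signal in DNMT_WT was common at gene starts, and differences of this size were not. Of the tiles that hold the starts of the 26794 promoters, 24.4% had DNMT_WT libraries above the TET_WT day 2 libraries without overlap, against 7.88% of all tiles. Their median difference was 0.22, with quartiles of -0.23 and 0.76, and 18 lay above 4 on the log2 scale. Among the 8622 promoters with at least 17 CpG 37.8% were higher without overlap, the median was 0.68 and 12 lay above 4.

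Ubqln2 (chromosome X, 153498232 to 153501562) had the lowest signal of the 4 genes and the fewest reads. Its 2 gene tiles held 24, 12 and 21 and then 42, 9 and 31 reads in DNMT_WT. In TET_WT at day 2 they held 0, 0 and 4 and then 8, 0 and 2 reads. The differences were 3.50 and 3.10, and the libraries of the lines do not overlap in either tile. Day 0 was close to empty too, with 6 and 9 reads summed over 3 libraries. Few reads fell on the X chromosome in any library, at 1.12%, 1.13% and 1.13% of all reads in DNMT_WT and 1.14%, 1.11% and 1.12% in TET_WT at day 2, so the share of the whole chromosome was alike in both lines.

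Otx1 (chromosome 11, 21994764 to 22001651) held signal in both lines. Its richest gene tile (21998001 to 22000000) had 3.66, 3.52 and 3.67 log2 RPKM in DNMT_WT and 2.71, 2.70 and 2.58 in TET_WT at day 2. This tile also overlaps the non-coding Gm32517, and the assay cannot assign it to one of them. The largest difference of the window, 3.98, lay just beyond the left end of the gene (21992001 to 21994000). There the libraries held 363, 131 and 272 reads in DNMT_WT and 14, 10 and 18 in TET_WT at day 2. The leftmost tile of the gene by chromosome coordinate (21994001 to 21996000) followed with 2.96. Left and right here do not say which end holds the start of Otx1.

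**Figure D1:**
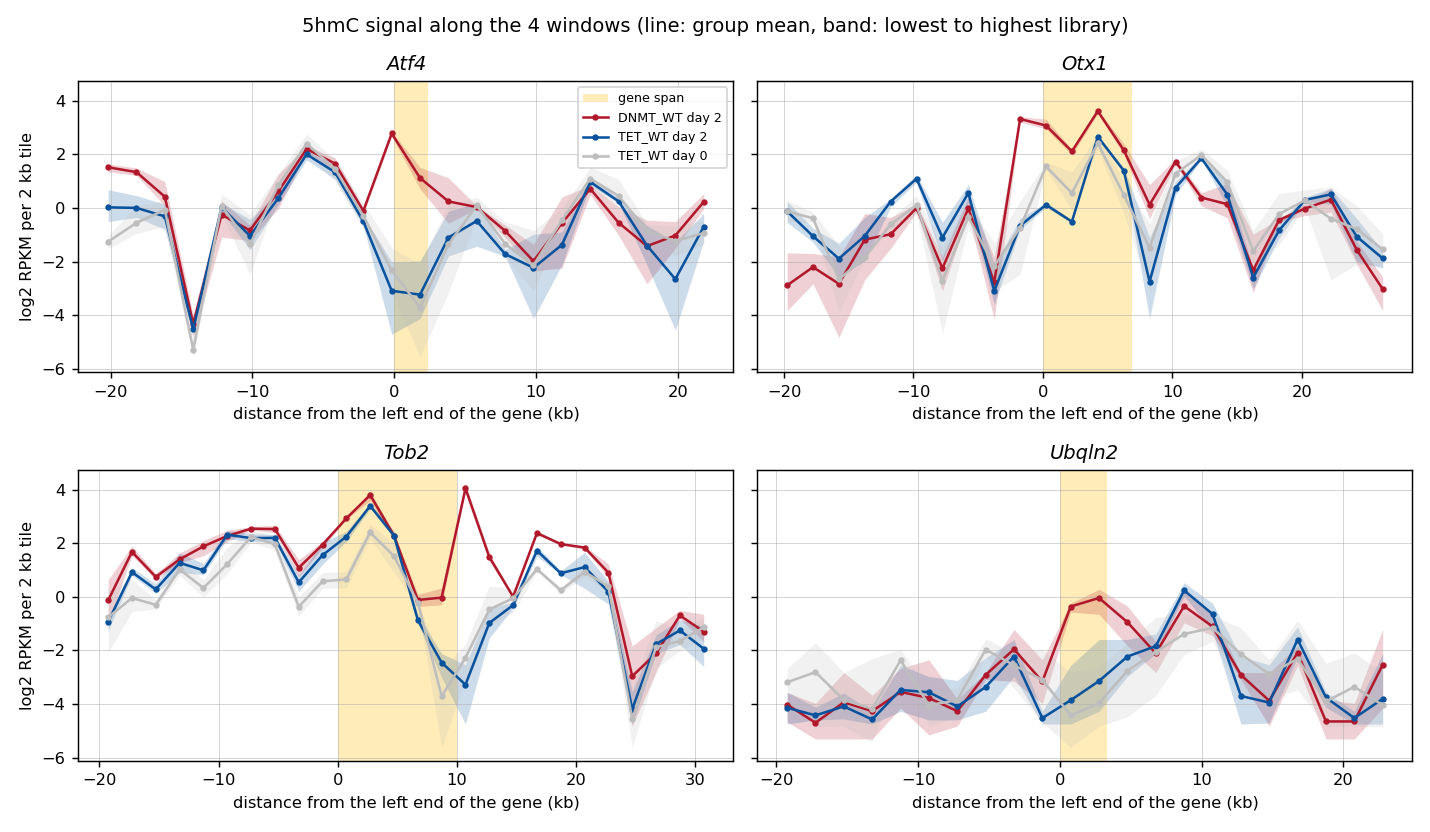
The horizontal axis is the distance in kb from the left end of each gene and the vertical axis the log2 RPKM of each 2 kb tile; lines are group means of DNMT_WT day 2, TET_WT day 2 and TET_WT day 0 (n = 3 each), bands run from the lowest to the highest library, and the gene span is shaded. DNMT_WT stands farthest above TET_WT day 2 at a few tiles in or beside each gene, by 7.32 in the Tob2 tile and 5.87 in the Atf4 tile. In the flanking tiles the median difference was 0.36 for Atf4, -0.43 for Otx1, 0.60 for Tob2 and -0.003 for Ubqln2.

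Over the gene spans with 2 kb on either side, the unit in which whole genes were compared, the 3 DNMT_WT libraries lay above all 8 TET_WT libraries in each of the 4 genes. Atf4 had 0.96, 1.24 and 0.84 log2 RPKM in DNMT_WT, against -1.92, -1.86 and -2.16 in TET_WT at day 2. The difference of the means was 2.99 (SE 0.25), or 7.94-fold. Otx1 had 2.31, 2.52 and 2.38 in DNMT_WT, against 0.03, -0.22 and 0.32 in TET_WT at day 2 (difference 2.36, SE 0.21, 5.13-fold). The SD over the DNMT_WT libraries was 0.20 for Atf4 and 0.11 for Otx1 (n = 3).

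Tob2 had 2.09, 2.02 and 2.02 in DNMT_WT, against 0.00, 0.33 and 0.38 in TET_WT at day 2 (difference 1.81, SE 0.13, 3.49-fold). With voom on reads summed over the gene, which weights full tiles more, this difference was 1.02. Ubqln2 had -0.96, -1.67 and -0.76 in DNMT_WT, against -3.17, -3.74 and -3.41 in TET_WT at day 2 (difference 2.31, SE 0.49, 4.96-fold). In the order of DNMT_WT levels per length, Otx1 (2.41 ± 0.11, SD) stood above Tob2 (2.04 ± 0.04), then Atf4 (1.01 ± 0.20) and Ubqln2 (-1.13 ± 0.48, n = 3 each), and no neighbours in this order overlap. In TET_WT at day 2, Tob2 (0.23 ± 0.20) and Otx1 (0.05 ± 0.27) overlapped, with Atf4 (-1.98 ± 0.16) and Ubqln2 (-3.44 ± 0.28) below them.

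All 4 genes had DNMT_WT libraries above the TET_WT day 2 libraries without overlap, which was a consequence of their choice; over all genes this held for 32.8%. By size of the line difference the genes stood at places 2 (Atf4), 6 (Otx1), 9 (Ubqln2) and 36 (Tob2) of 20713. The line differences of the 4 genes ran from 1.69 to 3.08 with any single library left out, a range that describes the chosen values and does not test them. Over all genes, limma called 3086 higher in DNMT_WT (14.9%) and 843 lower (4.07%) at an adjusted p under 0.05, so that 78.5% of the calls were higher. With median centring, which moved the median difference of all genes to 0.31 against 0.10, 92.8% of the calls were higher. Calls in both directions numbered 2060 to 6218 with single libraries left out, the fewest without TET_WT day 2 replicate 1 and the most without day 0 replicate 2.

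**Figure D2:**
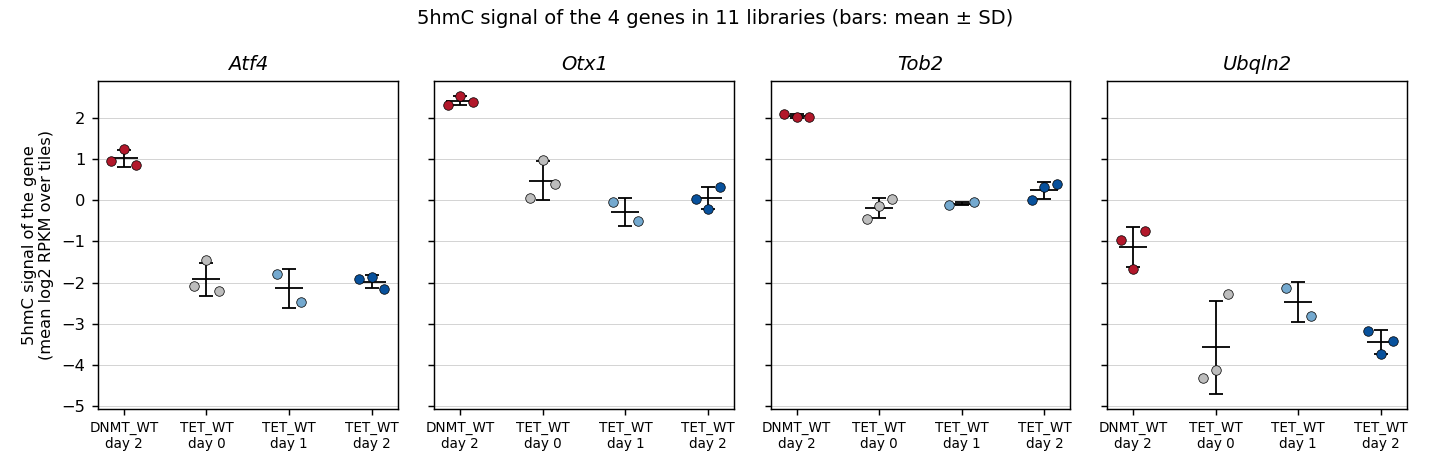
Each panel shows one gene, with the log2 RPKM averaged over its tiles (vertical axis), in DNMT_WT day 2 and in TET_WT day 0, day 1 and day 2; points are single libraries and bars the mean ± SD. In each gene the 3 DNMT_WT points lie above all 8 TET_WT points, with the lowest DNMT_WT value of Atf4 at 0.84 and the highest TET_WT value at -1.46.

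Of the 94 tiles in the windows, 35 had DNMT_WT libraries above the TET_WT day 2 libraries without overlap, 8 had them below, and 51 overlapped. Over all tiles the shares were 7.88% above and 10.5% below. Differences above 2 were found in 11 tiles, of which 8 overlap one of the 4 genes and the other 3 lie directly beside one. Such differences made up 0.478% of all tiles. A measure free of sequencing depth, the share of a window's reads that fell in gene tiles, was 27.5%, 24.9% and 22.6% for Atf4 in DNMT_WT, against 1.67%, 1.06% and 1.33% in TET_WT at day 2. For Ubqln2 the shares were 36.5%, 26.9% and 33.5% in DNMT_WT, against 8.79%, 0% and 6.38% in TET_WT at day 2, on windows of 74 to 181 reads.

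For Otx1 the share was 53.8%, 54.1% and 55.1% in DNMT_WT and 36.8%, 35.7% and 33.8% in TET_WT at day 2. For Tob2 it was 46.7%, 44.4% and 44.2% in DNMT_WT and 38.2%, 34.3% and 34.8% in TET_WT at day 2. The Tob2 gene body, away from the start, held signal in both lines. Its tile from 81850001 to 81852000 had 3.88, 3.92 and 3.59 log2 RPKM in DNMT_WT and 3.49, 3.30 and 3.39 in TET_WT at day 2. The 4 tiles of the body farthest from the start differed by 0.00 to 0.75, and the tile next to the start tile by 2.43.

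The flanks differed from gene to gene. Around Otx1 the 20 flanking tiles had a median difference of -0.43, and 7 of them were lower in DNMT_WT without overlap while 4 were higher. The lowest, a tile outside annotated genes (21974001 to 21976000), held 4, 1 and 8 reads in DNMT_WT and 23, 12 and 28 in TET_WT at day 2, a difference of -2.76. Around Tob2 the flank was higher in DNMT_WT, with a median of 0.60 and 12 of 20 tiles higher without overlap. The Atf4 flank had a median of 0.36, with 5 tiles higher and 1 lower. The Ubqln2 flank had a median of 0.00, with 1 tile higher.

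Farther out the median differences were small. At 20 to 100 kb from the gene the median tile difference was 0.17 for Atf4, -0.34 for Otx1, 0.24 for Tob2 and -0.16 for Ubqln2. From 100 kb to 1 Mb it ran from -0.18 for Ubqln2 to 0.16 for Atf4, and over the rest of each chromosome from -0.10 to 0.01. Tiles higher in DNMT_WT without overlap made up 20% (Atf4), 33.8% (Tob2), 1.3% (Otx1) and 7.8% (Ubqln2) at 20 to 100 kb. From 100 kb to 1 Mb they made up 21%, 19.7%, 4.5% and 5.9%, against 8.8%, 8.8%, 12.5% and 5.9% over the rest of the chromosomes. The classes up to 1 Mb of Atf4 and Tob2, both on chromosome 15, share tiles. Averaged over the whole window of 20 kb on either side, the gene differences were 0.96 for Atf4, 0.13 for Otx1, 0.93 for Tob2 and 0.41 for Ubqln2, each more than 1.5 times below the value of the gene itself.

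**Figure D3:**
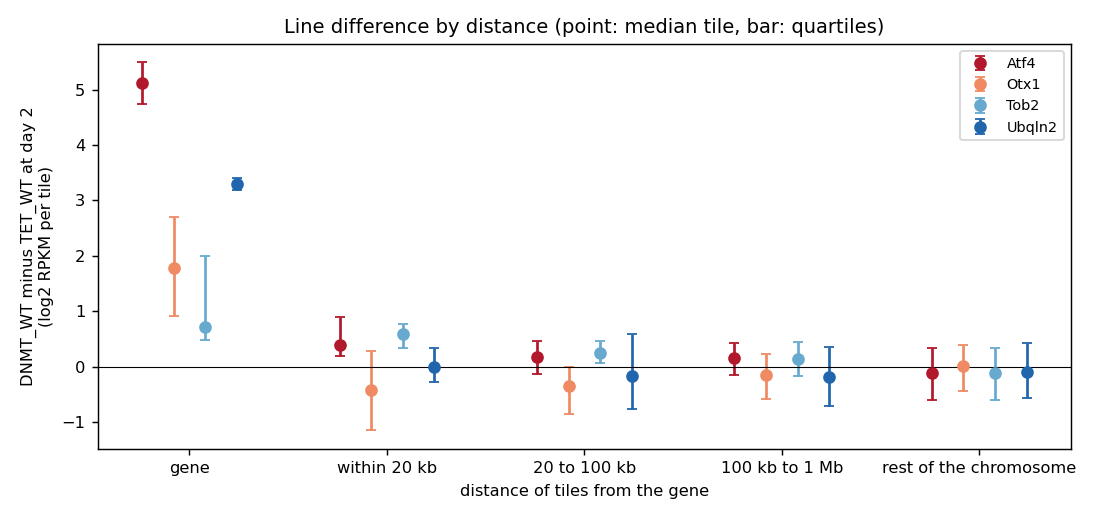
The vertical axis is the difference in log2 RPKM between DNMT_WT and TET_WT at day 2, and the horizontal axis the distance class of tiles from each gene; points are the median tile and bars the quartiles. Gene tiles stand at medians of 5.11 for Atf4, 3.30 for Ubqln2, 1.79 for Otx1 and 0.72 for Tob2, and the classes beyond 20 kb lie between -0.34 and 0.24.

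Annotated neighbours in these windows showed smaller differences, given here without a test because they share the windows. Mief1, a mitochondrial outer-membrane protein gene left of Atf4, had 0.93, 0.99 and 0.82 log2 RPKM in DNMT_WT and 0.07, 0.17 and -0.18 in TET_WT at day 2 (difference 0.89, SE 0.13). Its span with 2 kb on either side takes in the tile with the start of Atf4 (difference 5.87). The Mief1 value is therefore not separate from that of Atf4. Rps19bp1, right of Atf4, had a difference of 0.76 (SE 0.28). Next to Tob2, Phf5a, a splicing factor gene, had 0.79 (SE 0.17). Ehbp1, beside Otx1, had -0.36 (SE 0.22), with DNMT_WT lower in all 3 libraries.

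The course within TET_WT was examined to see whether the genes' signal moved during the exit from naive pluripotency. The difference of day 1 against day 0 uses no library of the contrast that chose the genes, so it was tested. Its SE and p-values rest on a variance fitted over all 11 libraries, those of that contrast included, so they are not fully independent of the choice. None of the 4 genes was called by limma. Otx1 had -0.04 and -0.52 log2 RPKM at day 1, against 0.05, 0.98 and 0.38 at day 0 (difference -0.75, SE 0.23, adjusted p = 0.221). Ubqln2 had 1.09 (SE 0.55, adjusted p = 0.433), Atf4 -0.21 (SE 0.28, adjusted p = 0.770) and Tob2 0.11 (SE 0.15, adjusted p = 0.781). Over all genes limma called 0 (0.00%) in this comparison, with 2551 (12.3%) at an unadjusted p under 0.05 and 224 called by voom. Without day 0 replicate 2 it called 279 and without day 1 replicate 3 it called 46, none of the 4 genes among them. The day 1 replicate 2 library is shallow, and its tiles without reads stand at -2.81, above the -4.84 to -5.63 of the day 0 libraries, which moves with the day 1 values of the nearly empty Ubqln2. The Ubqln2 value was 0.75 without that library and 0.13 at equal depth, 0.72 without day 0 replicate 1 and 1.74 without day 0 replicate 3.

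Some single tiles were called at day 1 in the main fit. None of the window tiles was called at equal depth, with no variance trend or by voom. Of the 93 tiles tested in the windows 4 were called by limma over all tiles, against 1.01% of all tiles. The leftmost tile of Otx1 (21994001 to 21996000) fell to 0.34 and -0.32 log2 RPKM at day 1, against 1.43, 1.71 and 1.52 at day 0 (difference -1.54, adjusted p = 0.000305). In reads this was 8 and 19 at day 1 and 120, 84 and 122 at day 0. Its call held with any one library left out, and was lost at equal depth (difference -1.24, adjusted p = 0.266), with no variance trend (-1.54, 0.217) and by voom (-1.67, 0.0609).

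The other 3 called tiles belong to the Tob2 window. The body tile from 81850001 to 81852000 rose to 3.34 and 2.81 at day 1, against 2.33, 2.70 and 2.17 at day 0 (difference 0.67, adjusted p = 0.0131). Its neighbour from 81852001 rose by 0.89 (adjusted p = 0.0278), to 3.01 and 1.79 at day 1 against 1.64, 1.99 and 0.91 at day 0, so that the days overlap. A flanking tile from 81862001 fell by 1.90 (adjusted p = 0.0432), where day 1 replicate 2 held 0 reads. These 3 calls were lost without that library (adjusted p = 0.574, 0.837 and 0.636 in this order), and at equal depth (0.172, 0.738 and 0.793). They were lost without day 0 replicate 3 too (0.0771, 0.22 and 0.141), and the last of them without any single library other than day 0 replicate 2 and day 1 replicate 3.

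Day 2 against day 0 in TET_WT shares the TET_WT day 2 libraries with the contrast that chose the genes, so its values stand without a test. Tob2 had 0.00, 0.33 and 0.38 log2 RPKM at day 2 and -0.46, -0.15 and 0.02 at day 0 (difference 0.43, SE 0.13), and the days overlap by 1 library. Otx1 had a difference of -0.42 (SE 0.21), which was -0.63 without day 0 replicate 1, -0.17 without day 0 replicate 2, -0.12 by voom and -0.026 with the span widened by 20 kb. Atf4 had -0.06 (SE 0.25) and Ubqln2 0.13 (SE 0.49). The leftmost tile of Otx1 stayed at its day 1 level, with 0.21, 0.13 and 0.03 at day 2, a difference from day 0 of -1.43. The Tob2 body tile from 81850001 had 3.49, 3.30 and 3.39 at day 2, against 2.33, 2.70 and 2.17 at day 0.

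Marker genes were read for the labelled cell types, with the limit that 5hmC at a gene does not measure its expression. Of 6 naive ES cell markers 6 gained signal at day 2 against day 0, as did 2 of 5 epiblast markers and 1 of 5 feeder fibroblast markers. Of all genes 15.3% were called higher in that comparison. Between the lines at day 2, 2 of 6 naive, 1 of 5 epiblast and 1 of 5 feeder markers were higher in DNMT_WT, against 14.9% of all genes, and 0 were lower. Their part in the differences of the 4 genes was not tested.

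Other genes of the 4 pathways, none of them among the 4 chosen genes, were compared between the lines in the same fit. Their lists were drawn up with earlier results of these data known. The counts by list are therefore a description and no independent evidence. In the list of OTX factors and anterior patterning 15 of 22 genes were higher in DNMT_WT, 1 was lower and 6 did not pass. Over all genes 14.9% were called higher and 4.07% lower. The median difference of the list was 0.71, against 0.10 over all genes. The gene called lower in this list was Hesx1, a homeobox repressor of the anterior neural plate (-0.45, adjusted p = 0.0487), named after its value was seen. Six3, a homeobox gene of the anterior neural plate, was higher by 1.80 (SE 0.16, adjusted p = 4.9e-05) and Gsc, the organiser gene goosecoid, by 1.39 (SE 0.12, adjusted p = 3.8e-05). Cer1, a secreted inhibitor of Nodal and Wnt, had -0.57 without a call (adjusted p = 0.144). It was called lower by voom (0.0149), on tiles with signal not below the median (0.00485) and with the span widened by 20 kb (0.0489). Otx2, the closest relative of Otx1, had -0.12 (adjusted p = 0.643; 0.10 with median centring, 0.20 at equal depth), and Crx had 0.04 (adjusted p = 0.920). These 2 relatives, and those of Tob2 and Ubqln2 below, were named after their values were seen.

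In the ubiquilin and proteasome shuttling list 8 of 21 genes were higher, 0 were lower and 13 did not pass (median 0.35). Over all genes 14.9% were called higher and 4.07% lower. Stub1, which encodes the chaperone-bound ubiquitin ligase CHIP, was higher by 1.42 (SE 0.16, adjusted p = 0.000172) and Adrm1, a ubiquitin receptor of the proteasome, by 0.78 (SE 0.15, adjusted p = 0.00347). Among the ubiquilins Ubqln4 was higher by 0.57 (SE 0.17, adjusted p = 0.0376), a call lost without any one of the 6 day 2 libraries (adjusted p of 0.0636 to 0.117). Under other processing of all libraries its adjusted p reached 0.101. Ubqln1 had 0.16 (adjusted p = 0.310), with an adjusted p from 0.0162 to 0.458 under other processing.

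In the TOB/BTG and deadenylation list 4 of 20 genes were higher, 0 were lower and 16 did not pass (median 0.26). A share of 20% higher is near the 14.9% of all genes. Cnot3, a subunit of the CCR4-NOT complex, was higher by 0.89 (SE 0.15, adjusted p = 0.00171) and Cnot10 by 0.36 (SE 0.10, adjusted p = 0.0240). The Cnot10 call was lost without TET_WT day 2 replicates 1 or 3 or any DNMT_WT replicate (adjusted p of 0.0571 to 0.122). It was lost with median centring (0.066) and at equal depth (0.0738) too. Tob1, the closest relative of Tob2, had 0.52 without a call (adjusted p = 0.101). It was called by voom (0.0469), under some other processing and with a library left out. Over the ways of processing all libraries its difference ran from 0.14 to 0.74 and its adjusted p from 0.00866 to 0.343. Cnot4 had -0.40 without a call (adjusted p = 0.270), and was called lower by voom (0.0274), when fitting the compared groups alone (0.0164) and without day 0 replicate 2 (0.0101).

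In the integrated stress response list 4 of 25 genes were higher, 1 was lower and 20 did not pass (median 0.23). These shares are near those of all genes, 14.9% higher and 4.07% lower. Ddit3, which encodes the stress factor CHOP, was higher by 0.72 (SE 0.13, adjusted p = 0.00268), and Ppp1r15a, which encodes the stress-induced phosphatase subunit GADD34, by 0.99 (SE 0.24, adjusted p = 0.0119). The Ppp1r15a call was lost without DNMT_WT replicate 1 (0.0508) or 3 (0.0557). Under other processing of all libraries its adjusted p reached 0.0536. Ppp1r15b, the constitutive counterpart, was lower by 1.16 (SE 0.15, adjusted p = 0.000385). Over the 4 lists 31 of 88 genes were higher (35.2%, against 14.9% of all genes) and 2 lower. The anterior patterning list gave 15 of the 31. These 33 calls were 18 without TET_WT day 2 replicate 1, 20 without DNMT_WT replicate 1 and 21 at equal depth.

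**Figure D4:**
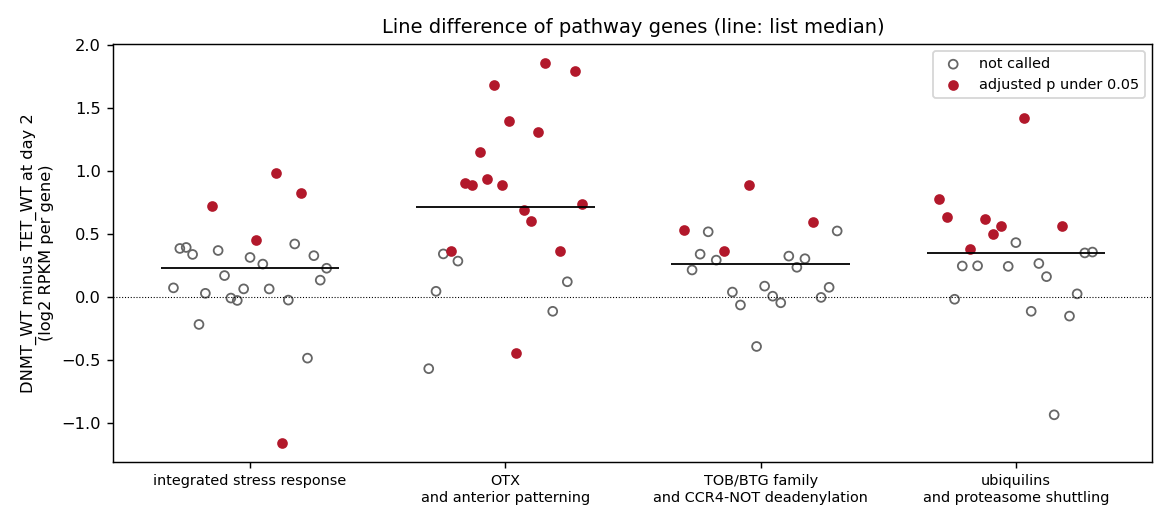
Each point is one gene of a pathway list, with its difference in log2 RPKM between DNMT_WT and TET_WT at day 2 on the vertical axis; filled points were called at an adjusted p under 0.05 and the line is the list median. The anterior patterning list has 15 of 22 genes called higher and a median of 0.71, against medians of 0.23 to 0.35 in the other lists. Of all genes 14.9% were called higher.

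Within TET_WT, day 2 against day 0, 25 of the 88 pathway genes rose and 0 fell, where 17.8% of all genes were called, 15.3% higher and 2.51% lower. They were 11 of 22 in the anterior patterning list, 8 of 25 in the stress response list, 5 of 21 in the ubiquilin list and 1 of 20, Tob1, in the deadenylation list. Leaving out day 0 replicate 2 gave 39 calls. Leaving out day 0 replicate 1 gave 12, day 0 replicate 3 gave 16, and day 2 replicate 2 or 3 gave 13 each. Otx2 rose by 0.69 (adjusted p = 0.00491), where Otx1 had -0.42, and Tob1 rose by 1.30 (adjusted p = 0.000987), where Tob2 had 0.43.

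Among themselves the 4 genes correlated over the 11 libraries at Pearson r from 0.71 (Otx1 and Ubqln2) to 0.96 (Atf4 and Otx1), which the difference between the lines sets. Over the 8 TET_WT libraries alone r ran from -0.34 (Atf4 and Ubqln2) to 0.62 (Atf4 and Otx1). These points share libraries and depth, and the values are a description. The genes with the most similar values over 11 libraries were Ap4m1 (r = 0.99), Hoxb7 (0.98) and Six3 (0.98) for Atf4, and Syne3 (0.98), Padi2 (0.98) and Hoxb7 (0.97) for Otx1. For Tob2 they were Gsx1, Pip4k2b and Nrn1 (each r = 0.99), and for Ubqln2 they were Uspl1 (0.94), Med26 (0.94) and Sec16a (0.92). The line difference enters these r too. In the 8 TET_WT libraries alone they ran from 0.48 (Six3 with Atf4) to 0.97 (Pip4k2b with Tob2). Hoxb7, a homeobox gene of chromosome 11, had a line difference of 2.32, of a size with those of the 4 genes, while Syne3 had 0.43 and Uspl1 0.33.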

How the data were processed

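HMCP-seq uses a capture kit to enrich DNA fragments carrying 5hmC; 10 ng of sonicated DNA went into each library per the labels. The authors deposited log2 RPKM values in 2 kb tiles (GRCm38). Bowtie2 2.4.1, Trim Galore 0.6.5 and cutadapt 2.3 are listed in the submitters' processing notes; the counting tool is not given in the sources used here. Values scaled to a library total are blind to changes in overall 5hmC content.

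Reads were recovered from the steps of the values: 100.000% (rounded) lay within 0.1% of a whole number. Their totals are 2.32 times the denominator of the deposited values in each library, which shifts all values alike. Only chromosomes 1 to 19 and X were used, without the tiles of lowest 10% and highest 0.1% mean signal. A gene value is the mean over kept tiles of its RefSeq span with 2 kb on either side (at least 3 tiles). Symbols that the table lists more than once were left out. The 11 libraries entered one limma 3.58.1 fit (R 4.3.3, variance trend); p-values are two-sided and adjusted by Benjamini-Hochberg over all genes or tiles, and a call is an adjusted p under 0.05. The procedure was tested on simulated data. Alternatives were other filters and scalings, reads thinned to 7342015, voom on recovered reads (with library totals, since the planned TMM scaling was not available), a replicate block, and each library left out.

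The members, lists and named genes were chosen with earlier results of these data known. Named pathway genes are, per list, the 2 of smallest p between the lines and the one farthest in the other direction. Window neighbours and the 3 genes most correlated with each member are also named. A window neighbour and a list gene that this rule names are not reported here.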

Additional observations from a re-analysis of the deposited data

How the results depend on the processing

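The line differences of Atf4, Otx1, Tob2 and Ubqln2 stayed positive under each alternative that gave a value. The genes were chosen for this difference in these same libraries, so the sign was largely set by the choice and only the sizes are informative. Ubqln2 had no value on the tiles of upper signal, those not below the median. The median of the 4 differences, 2.33, was 1.94 at equal depth, 0.67 with gene spans widened by 20 kb and 2.20 to 2.44 with single libraries left out. Genes called between the lines numbered 2552 with median centring, 6260 with gene spans widened by 20 kb, 6903 when fitting the compared groups alone, 6088 by voom, and 2060 to 6218 with single libraries left out. Pathway genes called between the lines numbered 21 at equal depth and 18 to 45 with single libraries left out. For day 1 against day 0, 41 genes were called on tiles of upper signal, 25 with gene spans widened by 20 kb, 224 by voom and 3 with the replicate block, and 0 to 279 with single libraries left out (279 without day 0 replicate 2). The median of the 4 genes in that comparison, -0.05, ran from -0.21 to 0.10 with single libraries left out. For day 2 against day 0, 1263 genes were called with median centring, 6586 by voom and 2264 to 6542 with single libraries left out; pathway genes numbered 8 with median centring, 12 with no variance trend, 14 when fitting the compared groups alone, and 12 to 39 with single libraries left out. Window tiles called at day 1 numbered 2 on tiles of upper signal, 1 with median centring, 0 at equal depth, 0 with no variance trend, 1 when fitting the compared groups alone, 0 by voom, and 1 to 6 with single libraries left out. Values near 0 changed sign: Tob2 at day 1 (-0.021 on tiles of upper signal, -0.073 with gene spans widened by 20 kb, -0.022 to 0.22 with single libraries left out), Atf4 at day 1 (-0.55 to 0.12 with single libraries left out), Atf4 at day 2 (0.031 with median centring, -0.20 to 0.17 with single libraries left out), Ubqln2 at day 2 (-0.23 with gene spans widened by 20 kb, -0.25 to 0.77 with single libraries left out), Otx2 between the lines (0.10 with median centring, 0.20 at equal depth) and Crx (-0.17 to 0.22 with single libraries left out). The cause of these changes was not tested. Same-numbered libraries of different groups correlated in their deviations at -0.29 to 0.30, and differently numbered ones at -0.30 to 0.29. Deviations from the mean of so few libraries are tied to one another, so these values do not decide whether the numbers pair the libraries. The replicate block left the line differences of the 4 genes unchanged and called 3731 genes between the lines and 3495 at day 2 against day 0. Read counts limit Ubqln2 most.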
